A study of Mus musculus with 37 samples.

Results

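The Slc25 family of mitochondrial carriers was followed in mouse kidneys after unilateral ureteral obstruction, an operation in which the ureter of 1 kidney is tied off and that kidney scars. Members were the genes whose symbol begins with Slc25a and that had a probe detected at p under 0.05 on at least 3 arrays, with the brightest such probe standing for each gene. Of 46 such genes on the Illumina bead array, 37 were members, out of 12866 genes tested. The other 9 (Slc25a18, Slc25a21, Slc25a22, Slc25a31, Slc25a40, Slc25a41, Slc25a43, Slc25a46 and Slc25a54) were detected on 0 to 2 arrays and are given no value. The names Slc25a18 and Slc25a22 belong to the glutamate carriers.

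The 37 arrays came from 25 mice in 12 groups. Obstructed kidneys came from 4 Twist1-deleted mice (ggt-cre+ with floxed Twist), 3 Twist-line controls (ggt-cre-, floxed Twist), 3 Snai1-deleted mice (ggt-cre+ with floxed Snail) and 3 Snail-line controls (ggt-cre-, floxed Snail). All of these mice were 10 weeks old. The untouched contralateral kidney of each was arrayed as well, except that of mouse 5 of the Twist1-deleted group, whose contralateral kidney was not analysed here. Healthy kidneys came from 3 Twist1-deleted and 3 Snai1-deleted mice of 26 weeks, and from 3 wild-type mice with ggt-cre and 3 without it, of 10 weeks. The Twist line and the wild-type mice had a mixed C57Bl/6 and sv129 background, and the Snail line a mixed C57Bl/6 and Balb/c background. The ggt-driven cre removes the floxed gene in proximal tubule cells, so other kidney cells of the deleted mice keep it, and cre and deletion went together within a line. Sex is not in the labels.

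Each array had 16977 to 20682 detected probes, and arrays of a group correlated at r = 0.936 to 0.992. Twist1 itself was near background, with 4.78 ± 0.25 in Twist1-deleted (SD, n = 4) against 5.12 ± 0.38 in Twist-line control obstructed kidneys (SD, n = 3), on the log2 scale (adjusted p = 0.508). Snai1 had 5.33 ± 0.45 in Snai1-deleted against 5.68 ± 0.35 in Snail-line control obstructed kidneys (SD, n = 3 each, adjusted p = 0.666). In these whole-kidney arrays the targeted genes therefore did not check the genotype labels.

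Carriers of the family sit in the inner mitochondrial membrane, where each swaps a few metabolites, nucleotides or cofactors between cytosol and matrix. They bring in phosphate and ADP for ATP synthase, pass reducing equivalents in the malate-aspartate shuttle, and move citrate, fatty acid carnitine esters, ornithine, glutathione and iron. The proximal tubule is rich in mitochondria and relies on fatty acid oxidation, so kidney cortex holds many of these carriers.

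Obstructed kidneys had lower signals for most carriers than contralateral kidneys. Averaged over the 4 line and genotype groups, 28 of 37 members fell, Slc25a24 rose and 7 did not pass the test (limma, adjusted p under 0.05 over all genes). The remaining member, Slc25a27, was detected on obstructed arrays alone and so entered the set only through them, and its higher fitted value is not counted as a rise. Of all genes, 28.7% fell and 33.6% rose. The median log2 difference, obstructed minus contralateral, was -0.58 over the members and 0.01 over all genes. The widest fall was that of Slc25a42, by 1.87 on the log2 scale (SE 0.20, 3.66-fold, adjusted p = 2.42e-09), and Slc25a24 rose 4.22-fold (log2 2.08, SE 0.11, adjusted p = 3.14e-15). In 6 members every one of the 13 obstructed arrays lay below every one of the 12 contralateral arrays (Slc25a10, Slc25a11, Slc25a12, Slc25a15, Slc25a33 and Slc25a35), as did 1.98% of all genes. In 1 member, Slc25a24, every obstructed array lay above, as in 6.14% of all genes. The other 30 overlapped.

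**Figure D1:**
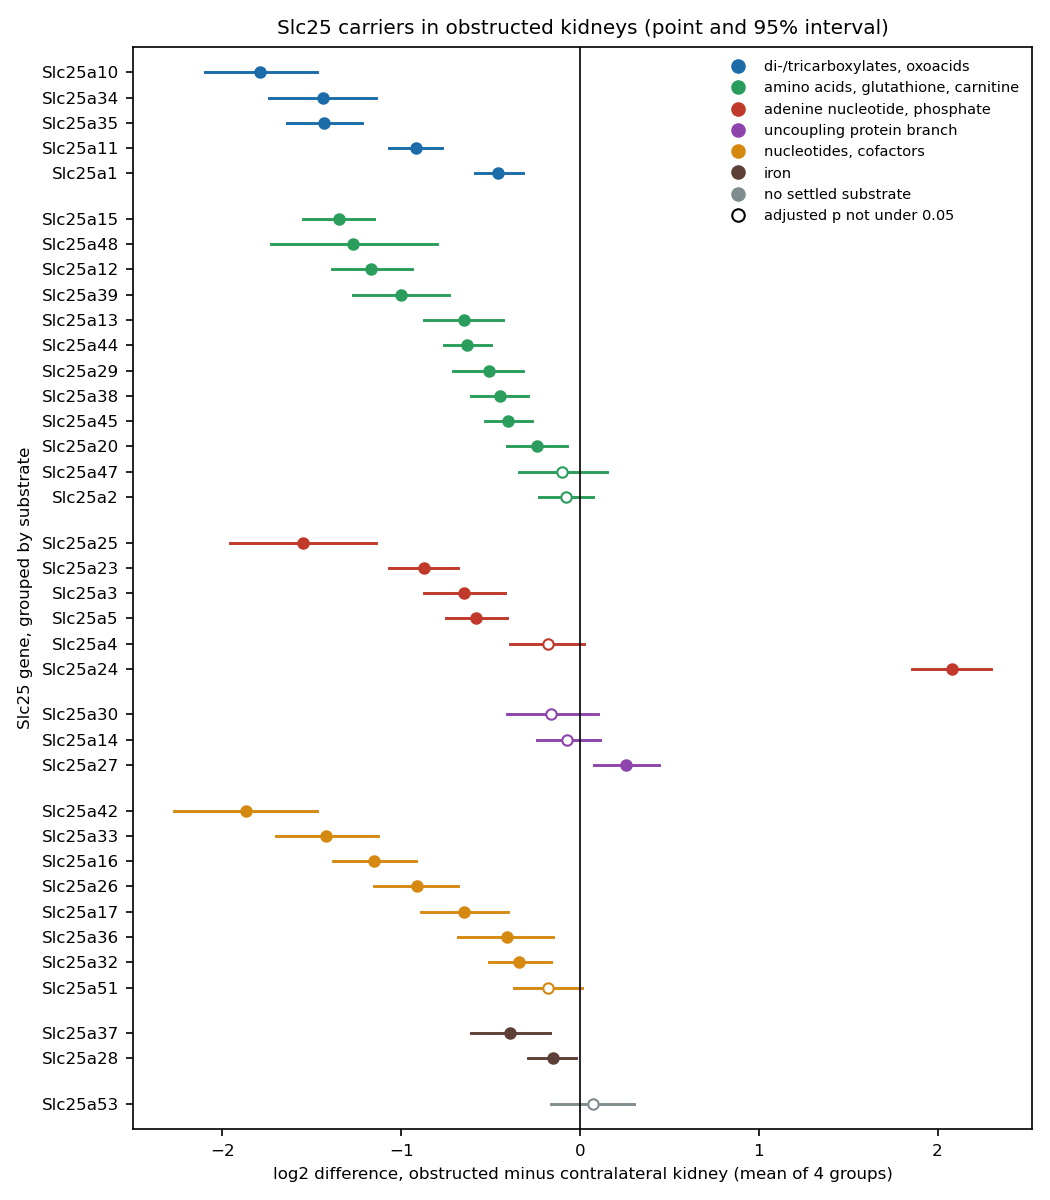
Log2 difference between obstructed and contralateral kidneys (x axis, mean of the 4 line and genotype groups) for each of the 37 Slc25 genes (y axis), grouped and coloured by substrate. Points are limma estimates, bars their 95% intervals, and open points did not reach an adjusted p under 0.05. Slc25a27 was detected on obstructed arrays alone. Slc25a24 stands at 2.08, and the falls reach -1.87 in Slc25a42.

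The kidneys were measured whole, so fewer cells of a type and less RNA per cell cannot be told apart. All 10 of 10 proximal tubule markers fell as well, with a median log2 difference of -2.00. Their mean log2 signal per array was 8.15 to 11.65 in obstructed, 11.79 to 12.24 in contralateral and 12.05 to 12.24 in healthy kidneys. All 6 measured leukocyte markers of 8 listed had higher fitted values (median 0.61). Their mean signal per array was 6.81 to 7.55 in obstructed and 5.67 to 6.30 in contralateral kidneys. Of the 6 markers, Ptprc and Itgam were detected on no contralateral or healthy array. They entered only through obstructed arrays, and their higher values, which the median includes, are not counted as rises. All 5 myofibroblast markers rose (median 2.77), with 7.93 to 10.72 in obstructed against 6.09 to 7.04 in contralateral kidneys. Markers of other tubule segments fell too, in 4 of 4 cases for the collecting duct (median -1.74) and in 3 of 4 measured cases for the thick limb and distal tubule (median -1.31). Both measured red cell markers fell (median -1.61), and of 3 endothelial markers 2 rose and 1 fell. The 3 measured adipose tissue markers of 5 listed varied widely between arrays of a class. Their mean signal per array was 4.35 to 8.42 in obstructed, 4.37 to 9.37 in contralateral and 4.42 to 7.43 in healthy kidneys. The medians of those means were 4.87, 4.63 and 4.70. The part of these cell types in the carriers' differences was not tested.

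Both kidneys of 12 mice were compared within the mouse. In 22 members the obstructed kidney was the lower one in all 12 mice, which 14.4% of all genes showed, and in 1 member, Slc25a24, it was the higher one in all 12, which 17.7% of all genes showed. The median over the members was negative in each mouse. It was lowest in mouse 2, a Twist-line control, at -1.06, and nearest to 0 in mouse 7, a Twist1-deleted mouse, at -0.26. Mouse 7 also had the smallest fall of the proximal tubule markers, with a median of -0.35, and mouse 2 the largest, with -3.79. Without mouse 7 the averaged comparison again called 30 members.

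**Figure D2:**
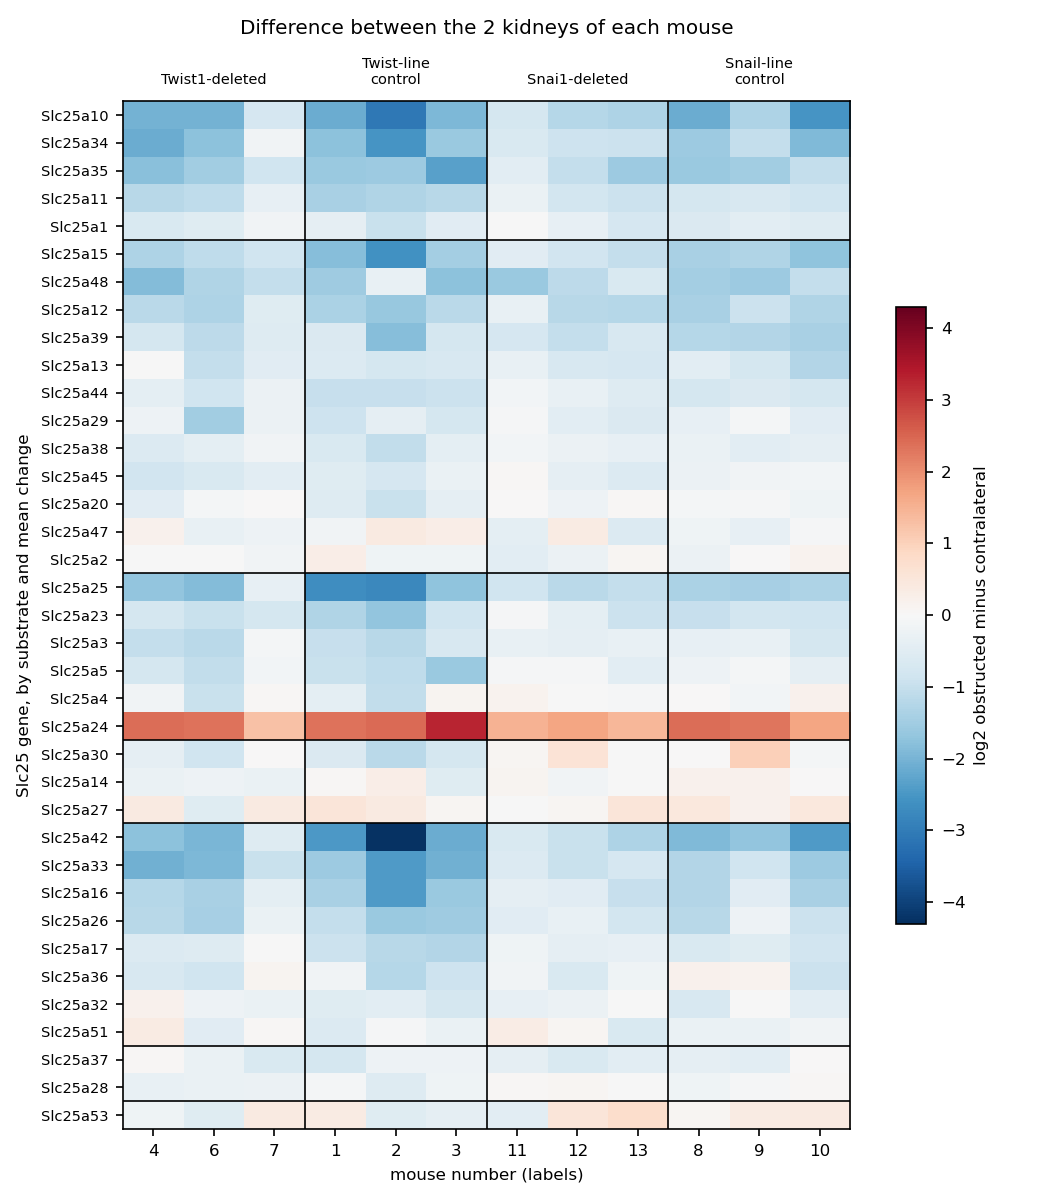
Log2 difference between the obstructed and the contralateral kidney of each of 12 mice (columns, by line and genotype) for the 37 Slc25 genes (rows, by substrate and mean difference). Blue is lower and red higher in the obstructed kidney. The Slc25a24 row is red in all 12 mice, from 1.25 to 3.26, and the column of mouse 7 is the palest, with a median of -0.26.

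Promoters of the carriers were read for motifs of 3 factors known to act on mitochondrial genes. RefSeq promoters (GRCm38.p6, 250 bases before the start) were matched for 29 of the 37 members, among 27025 genes. The window searched ran on 50 bases past the start. A gene counted where any of its promoters held the motif on either strand. The motif AAGGTCA is a site of Esrra, an orphan receptor that drives mitochondrial genes. It was found in 1 of 29 members, Slc25a34, and in 5.38% of all genes with a promoter. The motif CCGGAAG, bound by Gabpa and other ETS factors, was found in 6 of 29 (20.7%) and in 9.93% of all genes with a promoter. The 6 were Slc25a3, Slc25a4, Slc25a17, Slc25a20, Slc25a25 and Slc25a38. Among members with a promoter, 5 of the 23 that fell in obstructed kidneys held this motif (21.7%). So did 1 of the 6 that did not fall, Slc25a4 (16.7%). The motif GCATGCG, the core of the Nrf1 site, was found in 0 of 29 and in 4.01% of all genes with a promoter. A match is a run of letters and not a measured site. Shown are the promoters of Slc25a24, which rose most, of the dicarboxylate carrier Slc25a10, of Slc25a34, which holds the AAGGTCA match, and of the phosphate carrier Slc25a3, which holds a CCGGAAG match. Capitals mark the motif (AAGGTCA reads TGACCTT on the other strand).
Slc25a24 (chr3:109122899-109123148, plus strand): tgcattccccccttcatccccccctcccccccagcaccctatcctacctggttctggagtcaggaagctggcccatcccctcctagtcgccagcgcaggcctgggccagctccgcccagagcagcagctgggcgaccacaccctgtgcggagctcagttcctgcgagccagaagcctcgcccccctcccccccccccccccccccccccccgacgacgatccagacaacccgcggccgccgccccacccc
Slc25a10 (chr11:120491587-120491836, plus strand): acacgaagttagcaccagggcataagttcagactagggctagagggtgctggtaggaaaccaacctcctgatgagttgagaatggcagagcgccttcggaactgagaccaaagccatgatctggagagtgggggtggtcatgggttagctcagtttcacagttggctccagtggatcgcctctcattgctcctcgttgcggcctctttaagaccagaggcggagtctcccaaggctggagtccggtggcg
Slc25a34 (chr4:141623835-141624084, minus strand): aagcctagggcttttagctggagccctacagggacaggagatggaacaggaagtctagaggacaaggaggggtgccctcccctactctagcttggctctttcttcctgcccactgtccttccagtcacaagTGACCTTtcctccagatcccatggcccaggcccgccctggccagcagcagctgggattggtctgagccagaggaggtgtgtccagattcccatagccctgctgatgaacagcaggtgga
Slc25a3 (chr10:91123968-91124217, minus strand): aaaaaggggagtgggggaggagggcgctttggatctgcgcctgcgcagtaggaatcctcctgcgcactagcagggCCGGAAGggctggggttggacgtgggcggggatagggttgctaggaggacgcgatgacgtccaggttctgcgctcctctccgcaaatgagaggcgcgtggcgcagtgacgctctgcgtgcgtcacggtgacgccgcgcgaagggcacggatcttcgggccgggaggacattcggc
The capitals in Slc25a34 begin 119 bases before the start, and those in Slc25a3 begin 175 bases before it. The first promoter is 72.8% G and C and the second 56.0%, and neither holds any of the 3 motifs in these 250 bases.

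All 5 measured members grouped under di- and tricarboxylates and related oxoacids fell in the averaged comparison, with a median of -1.43. The group includes Slc25a34 and Slc25a35, whose substrates in mammals are not settled. Slc25a10, the dicarboxylate carrier that exchanges malate and succinate for phosphate, had log2 signals of 9.79, 9.63, 9.71 and 10.24 in Twist1-deleted and 9.36, 8.76 and 9.72 in Twist-line control obstructed kidneys. It had 10.67, 9.67 and 10.17 in Snai1-deleted and 9.33, 10.12 and 8.46 in Snail-line control obstructed kidneys. Over all contralateral kidneys it ran from 10.90 through a median of 11.48 to 11.85, and over healthy ones from 10.79 through 11.18 to 11.65. Obstructed and contralateral arrays did not overlap, and healthy arrays overlapped the contralateral ones. Slc25a10 fell by 1.79 (SE 0.15, 3.45-fold, adjusted p = 4.47e-11), and the 2 kidneys of single mice differed by -3.09 to -0.72.

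Slc25a34 and Slc25a35, relatives of the yeast oxaloacetate carrier with no settled substrate in mammals, fell by 1.44 and 1.43 (SE 0.15 and 0.10). Slc25a35 had 5.37 to 6.47 in obstructed, with a median of 5.95, and 6.70 to 7.90 in contralateral kidneys, with a median of 7.18. Slc25a11, which exchanges 2-oxoglutarate for malate and forms 1 leg of the malate-aspartate shuttle, fell by 0.92 (SE 0.07), with 9.56 to 10.44 in obstructed against 10.54 to 11.04 in contralateral kidneys. Slc25a1, the citrate carrier that supplies cytosolic acetyl groups, fell least of the group, by 0.46 (SE 0.07, adjusted p = 9.1e-07). Its obstructed arrays, 9.30 to 10.25, overlapped the contralateral ones, 9.76 to 10.35, although the obstructed kidney was lower in 12 of 12 mice.

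Members grouped under amino acids, glutathione and carnitine esters fell in 10 of 12 cases, with a median of -0.57. The group includes Slc25a45, Slc25a47 and Slc25a48, for which no substrate is given here. Slc25a15, the ornithine carrier of the urea cycle, had 9.39, 9.19, 9.49 and 9.82 in Twist1-deleted and 8.67, 8.15 and 9.41 in Twist-line control obstructed kidneys. It had 9.98, 9.83 and 9.88 in Snai1-deleted and 9.22, 9.34 and 8.77 in Snail-line control obstructed kidneys. Its 12 contralateral arrays lay between 10.46 and 10.91, above each obstructed array. Slc25a15 fell by 1.35 (SE 0.10, 2.55-fold, adjusted p = 1.73e-12).

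Slc25a12 (aralar), the aspartate and glutamate exchanger of the malate-aspartate shuttle, fell by 1.17 (SE 0.11), with 7.87 to 9.32 in obstructed against 9.40 to 9.88 in contralateral kidneys. Its paralog Slc25a13 (citrin) fell by 0.65 (adjusted p = 7.17e-06). Slc25a13 was detected on 1 of 13 obstructed and 11 of 12 contralateral arrays, and in 3 of the 4 groups on no obstructed array. It fell at least 1.27-fold in Twist1-deleted and at least 1.61-fold in Snail-line control mice. In Snai1-deleted mice it averaged 4.77 in obstructed against 5.34 in contralateral kidneys, at least 1.35-fold lower, and did not pass (adjusted p = 0.0793). Slc25a39, the glutathione carrier, fell by 1.00 (SE 0.13). Slc25a48 fell by 1.27 (SE 0.23, adjusted p = 1.76e-05), with 4.50 to 6.25 in obstructed and 5.52 to 7.18 in contralateral kidneys. The 2 overlapped.

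Slc25a44, the branched-chain amino acid carrier, fell by 0.63, Slc25a29, a carrier of basic amino acids, by 0.51, Slc25a38, the glycine carrier used in heme synthesis, by 0.45 and Slc25a45 by 0.40. Slc25a20, which brings acylcarnitines into the matrix for fatty acid oxidation, fell by 0.24 (SE 0.08, adjusted p = 0.0124). It had 10.22 to 10.93 in obstructed and 10.45 to 11.37 in contralateral kidneys, which overlapped over most of their range. In Slc25a20 the obstructed kidney was the lower one in 10 of 12 mice. Its second detected probe had a difference of -0.89 (SE 0.18). Against healthy wild-type kidneys without cre, the probe used had -0.06 in Twist-line and 0.04 in Snail-line control obstructed kidneys. Neither passed. Slc25a2, a second ornithine carrier, had a difference of -0.08 and was detected on 4 arrays in all, and Slc25a47 had -0.10 (adjusted p = 0.494).

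**Figure D3:**
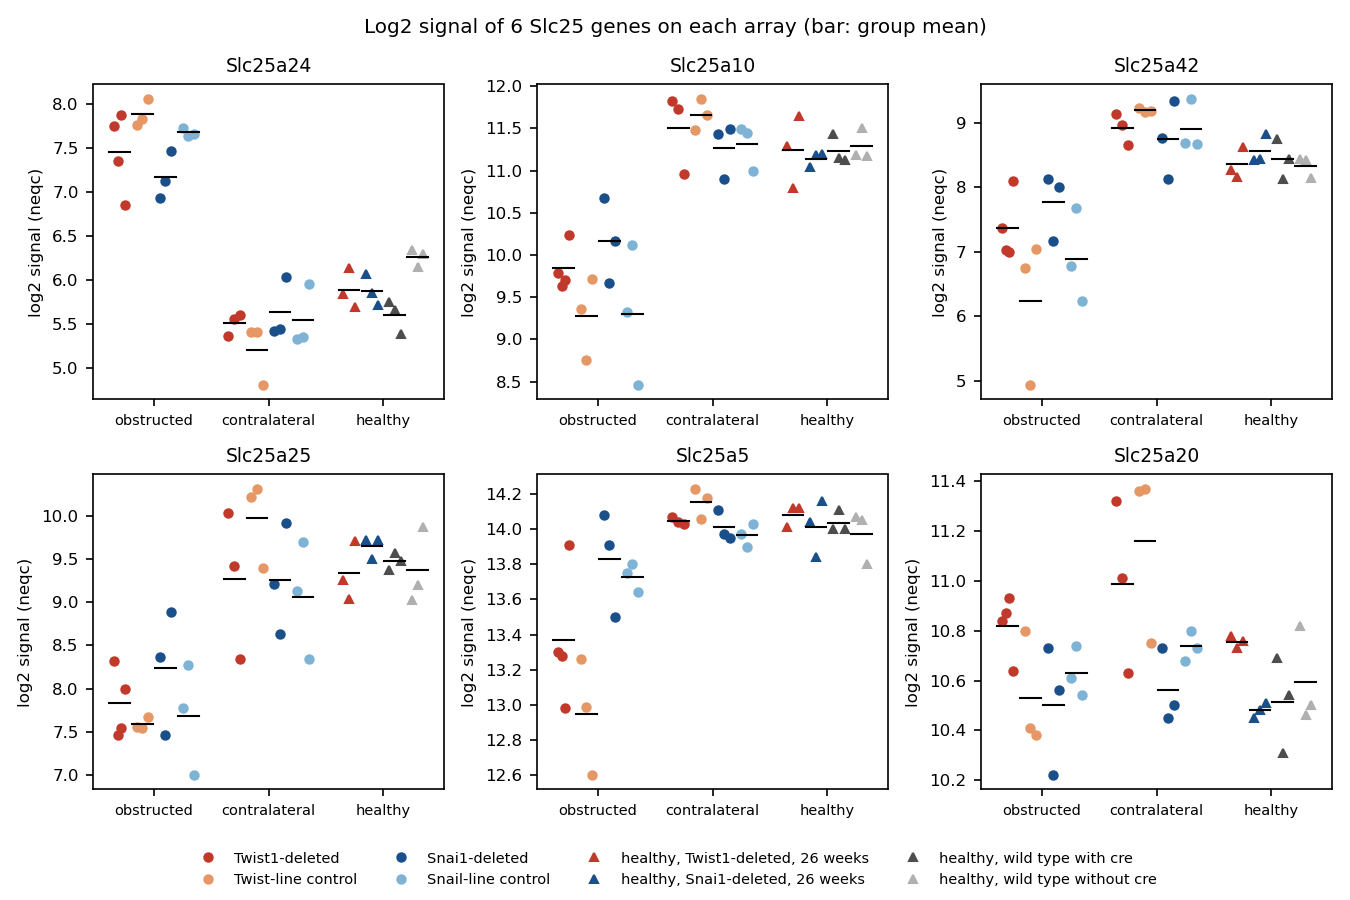
Log2 signal (y axis, neqc-normalised) of 6 Slc25 genes on each array, by kidney (x axis) and by line and genotype (colours; bars are group means). Slc25a24 lies at 6.85 to 8.06 in obstructed against 4.80 to 6.03 in contralateral kidneys, Slc25a10 at 8.46 to 10.67 against 10.90 to 11.85, and Slc25a20 overlaps between them.

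Adenine nucleotide and phosphate carriers moved in both directions: 4 of 6 measured genes fell, 1 rose and 1 did not pass. Slc25a24, an ATP-Mg and phosphate carrier with calcium-binding domains that sets the adenine nucleotide pool of the matrix, was the one that rose. It had 7.75, 7.35, 7.88 and 6.85 in Twist1-deleted and 7.76, 7.83 and 8.06 in Twist-line control obstructed kidneys. It had 6.93, 7.12 and 7.47 in Snai1-deleted and 7.73, 7.64 and 7.66 in Snail-line control obstructed kidneys. Its contralateral arrays ran from 4.80 through a median of 5.42 to 6.03, and its healthy arrays from 5.38 through 5.85 to 6.34. Every obstructed array was above every contralateral and healthy one. Of its other detected probes, 1 had a difference of 1.80 (SE 0.13) and 1 of 0.05 (SE 0.10, detected on 8 arrays).

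The paralogs of Slc25a24 with the same kind of substrate went the other way. Slc25a25 had 8.32, 7.46, 7.54 and 8.00 in Twist1-deleted and 7.56, 7.55 and 7.67 in Twist-line control obstructed kidneys. It had 8.37, 7.46 and 8.89 in Snai1-deleted and 7.78, 8.27 and 7.00 in Snail-line control obstructed kidneys, and 8.34 to 10.31 over contralateral ones. The 2 ranges overlapped, and within mice the obstructed kidney was lower in 12 of 12. Slc25a25 fell by 1.55 (SE 0.20, 2.93-fold, adjusted p = 8.76e-08), and Slc25a23 by 0.87 (SE 0.09).

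Slc25a5, the ADP/ATP exchanger of most tissues, had 13.30, 13.28, 12.98 and 13.91 in Twist1-deleted and 13.26, 12.99 and 12.60 in Twist-line control obstructed kidneys. It had 14.08, 13.91 and 13.50 in Snai1-deleted and 13.75, 13.80 and 13.64 in Snail-line control obstructed kidneys, against 13.90 to 14.23 over contralateral ones. The 3 Twist-line control arrays and 3 of 4 Twist1-deleted ones lay below every contralateral array, as did 4 of the 6 Snail-line arrays, by less. Averaged over groups Slc25a5 fell by 0.58 (SE 0.08, adjusted p = 6.12e-07). Slc25a3, the phosphate carrier, fell by 0.65 (SE 0.11, adjusted p = 6.95e-06), with 11.06 to 12.68 in obstructed against 12.27 to 12.95 in contralateral kidneys. Slc25a4, the ADP/ATP exchanger of heart and muscle, was detected on 0 of 13 obstructed and 2 of 12 contralateral arrays and did not pass (-0.18). It passed without the contralateral kidney of mouse 3 (-0.24, adjusted p = 0.0279).

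None of the 3 measured members of the uncoupling protein branch fell by the averaged test. Slc25a14 had a difference of -0.07 and Slc25a30, a carrier first described in kidney, of -0.16, and neither passed. Slc25a27, expressed mainly in brain, was detected on 7 of 13 obstructed, 0 of 12 contralateral and 0 of 12 healthy arrays. Its contralateral level is only a bound, and no fold or test is given. In the authors' series matrix values its fitted difference was 0.00.

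Carriers of nucleotides and cofactors fell in 7 of 8 cases, with a median of -0.78. Slc25a42, a carrier of coenzyme A and ADP, had 7.36, 7.03, 7.00 and 8.09 in Twist1-deleted and 6.75, 4.93 and 7.04 in Twist-line control obstructed kidneys. It had 8.13, 7.17 and 8.01 in Snai1-deleted and 6.77, 7.67 and 6.23 in Snail-line control obstructed kidneys, and 8.12 to 9.37 over contralateral ones. The lowest value of Slc25a42, 4.93, was that of mouse 2, whose 2 kidneys differed by -4.24. Only the highest obstructed array reached the lowest contralateral one.

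Slc25a33, a pyrimidine nucleotide carrier, fell by 1.42 (SE 0.14, adjusted p = 5.94e-10), with 6.76 to 8.16 in obstructed against 8.25 to 9.49 in contralateral kidneys. The other pyrimidine nucleotide carrier, Slc25a36, fell by 0.41 (SE 0.13), with ranges that overlapped. Slc25a16, a relative of the yeast coenzyme A transporter, fell by 1.15 (SE 0.11), and Slc25a26, which takes up S-adenosylmethionine for methylation in the matrix, by 0.91. Slc25a17, a peroxisomal carrier of coenzyme A, FAD and NAD, fell by 0.65, and Slc25a32, linked to folate and FAD, by 0.34. Slc25a51, the NAD carrier, was detected on 3 of 13 obstructed and 5 of 12 contralateral arrays and did not pass (-0.18).

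Both mitoferrins, which import iron for heme and iron-sulfur clusters, were lower by small amounts in obstructed than in contralateral kidneys. Slc25a37 (mitoferrin 1) fell by 0.39 (SE 0.11, adjusted p = 0.00261) and Slc25a28 (mitoferrin 2) by 0.15 (SE 0.06, adjusted p = 0.0359). Against healthy wild-type kidneys without cre, obstructed Twist-line and Snail-line controls had 0.36 and 0.12 for Slc25a37, and neither passed. For Slc25a28 they had -0.58 (adjusted p = 0.000362) and -0.03 (adjusted p = 0.89). The obstructed kidney had less Slc25a37 in 11 of 12 mice and less Slc25a28 in 9 of 12. The call of Slc25a28 was lost without any 1 of 11 arrays, at adjusted p = 0.0501 to 0.0882 (obstructed kidneys of mice 2, 4, 5, 8 and 13, contralateral kidneys of mice 2, 3, 6, 7, 8 and 11). Slc25a53, which has no settled substrate, did not pass (0.07).

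Genes that work beside the carriers were followed in the same averaged comparison. Of the malate-aspartate shuttle enzymes, 3 of 3 measured fell, Mdh1 by 1.78 and Mdh2 by 1.16, beside the carriers Slc25a11 and Slc25a12. Of the carnitine shuttle, 4 of 5 measured genes fell, among them Cpt2 by 0.76 (SE 0.10) and Crat by 1.16 (SE 0.12). The carrier Slc25a20 had -0.24 by the probe used and -0.89 by its other detected probe. Of the ATP synthase genes, 13 of 14 fell, with a median of -0.34. Factors that import carriers into the inner membrane fell in 9 of 13 cases (median -0.41), Tomm70a, their outer membrane receptor, by 0.87. Timm22, the channel of their insertion complex, had -0.11 (adjusted p = 0.439).

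All 9 measured genes of mitochondrial iron use fell (median -0.56), with Fech, which puts iron into heme, at -1.33. Of other mitochondrial transport genes 9 of 13 fell and 1, Tspo, rose by 0.76 (SE 0.06). Among family genes under other names, Mtch2 fell by 0.69, Mtch1 rose by 0.41 and Ucp1 did not pass (-0.22). Of 16 regulators of mitochondrial genes, 10 fell and 5 rose. Ppargc1a (-1.05) and Esrra (-0.89), which drive mitochondrial biogenesis, fell, and Pprc1 (0.94) and Atf5 (0.95), a factor of the mitochondrial stress response, rose.

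Within each line and genotype the same comparison was read separately. In Twist1-deleted mice 23 members fell and 1 rose (all genes 18.2% and 21.9%), with a median of -0.53, against 27 and 1 in Twist-line controls (20.5% and 26.6%), with a median of -0.85. In Snai1-deleted mice 6 fell and 1 rose (4.76% and 10.5% of all genes), with a median of -0.35, against 18 and 1 in Snail-line controls (15.3% and 21.0%), with a median of -0.48. With mouse as a random replicate block, 17 members were called in Snai1-deleted mice (1 higher, 16 lower). In the fit without the block, 4 were called when the contralateral kidney of mouse 13 was left out. Fitted on its own 2 groups, the Twist1-deleted comparison called 15 members. The member that rose was Slc25a24 in all 4 groups, by 1.95 in Twist1-deleted and 2.68 in Twist-line control mice, and by 1.54 in Snai1-deleted and 2.13 in Snail-line control mice.

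The 6 that fell in Snai1-deleted mice were Slc25a10 (-1.10), Slc25a11 (-0.66), Slc25a12 (-0.90), Slc25a15 (-0.78), Slc25a35 (-1.01) and Slc25a39 (-0.81). These 6 were also the members lower in each of the 4 groups. In Twist-line controls Slc25a30 fell by 0.85 (adjusted p = 0.00617), where Snail-line controls had 0.32 (adjusted p = 0.342). Against healthy wild-type kidneys without cre, obstructed Twist-line controls had -0.14 for Slc25a30 (adjusted p = 0.649). Obstructed Snail-line controls had 0.20 (adjusted p = 0.554). Slc25a5 fell by 1.21 in Twist-line controls, where Snail-line controls had -0.24. The test of the difference between the 2 control lines called 0 members (0.0389% of all genes), with an adjusted p of 0.156 for Slc25a5 (-0.97, SE 0.24) and 0.258 for Slc25a30 (-1.17, SE 0.35). At an unadjusted p under 0.05 it called 5 members (9.79% of all genes), and with mouse as a random block it called 1.

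**Figure D4:**
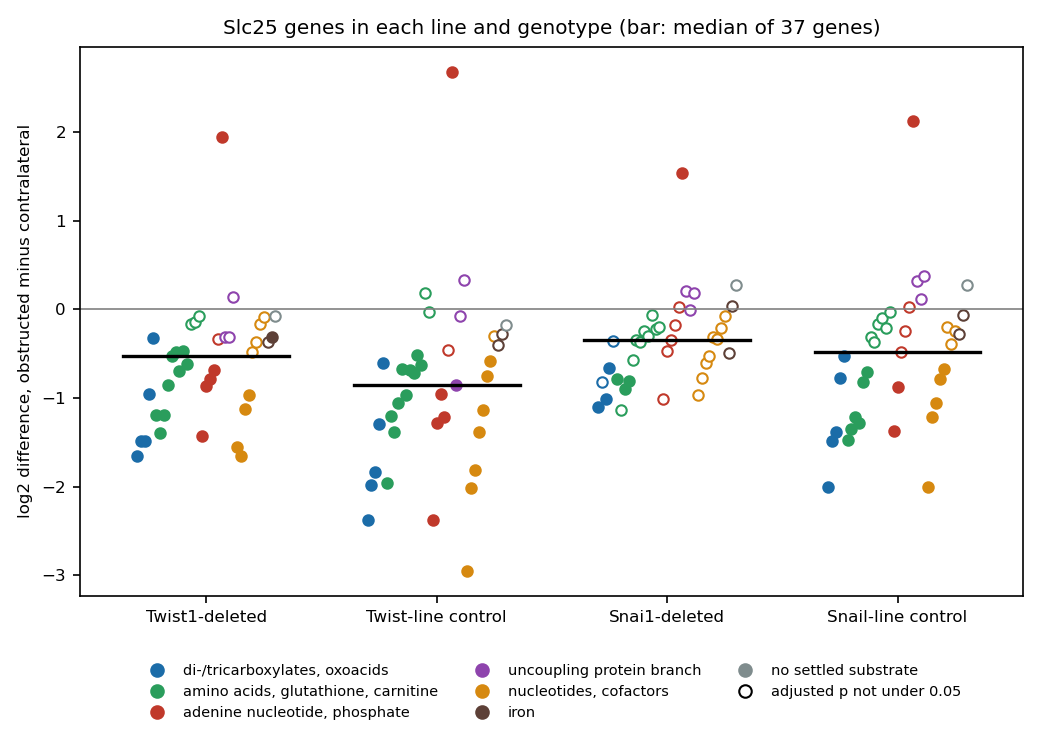
Log2 difference between obstructed and contralateral kidneys (y axis) of 37 Slc25 genes in each line and genotype (x axis), coloured by substrate, with open points where the adjusted p was not under 0.05 and bars at the medians. The medians are -0.53 in Twist1-deleted, -0.85 in Twist-line control, -0.35 in Snai1-deleted and -0.48 in Snail-line control mice, and Slc25a24 is the top point of each.

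Deletion of Twist1 or Snai1 in the proximal tubule was compared with the controls of the same line, in obstructed kidneys. Twist1-deleted obstructed kidneys called 0 members (0.0311% of all genes), with a median log2 difference, deleted minus control, of 0.26 and 11 members at an unadjusted p under 0.05 (11.5% of all genes). Snai1-deleted obstructed kidneys called 0 members (0% of all genes), with a median of 0.19 and 8 members at an unadjusted p under 0.05 (11.0% of all genes). The smallest p in both was that of Slc25a15, at 9.47 ± 0.26 in Twist1-deleted (SD, n = 4) against 8.74 ± 0.63 in Twist-line control kidneys (SD, n = 3). The difference was 0.73 (95% interval 0.34 to 1.11, adjusted p = 0.150). In the Snail line Slc25a15 had 9.89 ± 0.08 in Snai1-deleted against 9.11 ± 0.30 in control kidneys (SD, n = 3 each). The difference was 0.79 (95% interval 0.38 to 1.19, adjusted p = 0.232). Without the obstructed kidney of control mouse 3 the Twist1 comparison called 1 member.

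Slc25a42 was 1.13 higher in Twist1-deleted obstructed kidneys (95% interval 0.36 to 1.89, adjusted p = 0.271), and Slc25a10 was 0.87 higher in Snai1-deleted ones (0.23 to 1.51, adjusted p = 0.316). Neither passed the test. Slc25a24 differed between deleted and control mice in its response to obstruction by -0.73 for Twist1 (95% interval -1.34 to -0.11, adjusted p = 0.827) and by -0.59 for Snai1 (-1.23 to 0.04, adjusted p = 1). The tests of a different response called 0 members for Twist1 (0% of all genes), and 6 at an unadjusted p under 0.05 (5.88% of all genes). They called 0 for Snai1 as well (0% of all genes), and 2 at an unadjusted p under 0.05 (3.17%). In contralateral kidneys deletion of Twist1 called 0 members (0.00777% of all genes), and deletion of Snai1 0 (0%), with 0 members at an unadjusted p under 0.05 in both (5.15% and 2.55% of all genes).

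Healthy kidneys bore on the cre transgene and on the deletions without obstruction. Wild-type mice with cre against those without it called 0 members (0.0155% of all genes), and 1 at an unadjusted p under 0.05 (2.38%). That member was Slc25a24, with 5.75, 5.65 and 5.38 in mice with cre against 6.34, 6.15 and 6.29 in mice without cre (-0.66, adjusted p = 1). Healthy Twist1-deleted against cre-carrying wild-type mice called 0 members (3.39% of all genes), and 4 at an unadjusted p under 0.05 (19.7%). Healthy Snai1-deleted mice called 0 as well (0.871% of all genes), and 2 at an unadjusted p under 0.05 (10.1%). Both deleted groups were 26 weeks old and the wild-type mice 10 weeks old, so age and deletion cannot be told apart. For Snai1 the strain background differed as well, and it cannot be told apart from the deletion either. Slc25a48 varied most there, with 7.64, 5.82 and 5.60 in Twist1-deleted, 5.64, 5.94 and 6.55 in Snai1-deleted and 7.91, 6.81 and 7.79 in cre-carrying wild-type mice. Its differences were -1.15 (adjusted p = 0.152) and -1.46 (adjusted p = 0.165). Without mouse 20 the Twist1 comparison called 1 member, and fitted on its own 2 groups it called 2.

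Contralateral kidneys were set against healthy kidneys of wild-type mice without cre. Twist-line control contralateral kidneys called 11 members, 8 higher and 3 lower (17.7% of all genes). Slc25a44 had 9.05, 8.93 and 8.96 in Twist-line contralateral against 8.31, 8.28 and 8.10 in healthy kidneys (0.75, SE 0.13, adjusted p = 0.000583). Slc25a35 had 7.72, 7.69 and 7.85 against 6.77, 6.59 and 6.77 (1.04, SE 0.21, adjusted p = 0.00161). In both genes each contralateral array was above each healthy one. Slc25a24 was lower, with 5.41, 5.40 and 4.80 in Twist-line contralateral against 6.34, 6.15 and 6.29 in healthy kidneys (-1.06, SE 0.22, adjusted p = 0.00207). Slc25a23 (0.77) was also higher and Slc25a14 (-0.74) lower. The count was 7 without the contralateral kidney of mouse 2 and without healthy mouse 18 or 19, each left out in turn. Fitted on its own 2 groups, the comparison lost 5 of the 11 calls, at adjusted p = 0.0559 to 0.122. The calls lost were those of Slc25a1, Slc25a14, Slc25a20, Slc25a30 and Slc25a32.

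The direction depended on the probe in 3 of these 11. Of the 5 with several detected probes, 2 had the same sign in each probe (Slc25a1 and Slc25a24), but not the same size. Slc25a24 had -1.06 by the probe used and -0.08 and -0.54 by the others, detected on 26 and 8 arrays. Slc25a1 had 0.40 by the probe used and 0.21 by the other. Slc25a11 had 0.55 by the probe used and -0.21 and -0.32 by the others, Slc25a20 had 0.56 and -0.82, and Slc25a37 0.77 and -0.53. In the authors' series matrix values the median of all genes moved to -0.23. There 10 of the 11 had the same sign, Slc25a1 being at -0.01, and 5 were called, Slc25a35 and Slc25a44 as higher and Slc25a14, Slc25a24 and Slc25a32 as lower. In those values 6 other members were called as well, all lower, beside 23.9% of all genes lower and 3.84% higher. With the mean of all detected probes 7 members were called, 4 higher and 3 lower. The lower quartile of raw signals was 95.9, 88.3 and 90.1 in Twist-line contralateral and 111, 108 and 112 in healthy kidneys without cre. Snail-line control contralateral kidneys had 110, 106 and 104. Over all groups the quartile was 86.3 to 110.1 in contralateral and 107.6 to 121.4 in healthy kidneys. Its part in the differences was not tested.

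**Figure D5:**
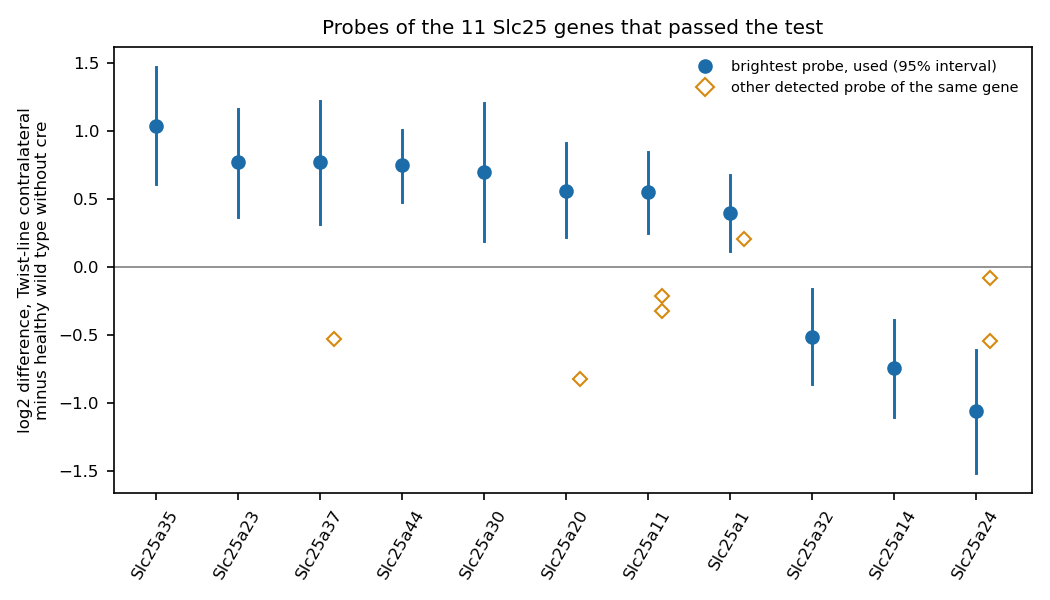
Log2 difference between Twist-line control contralateral kidneys and healthy wild-type kidneys without cre (y axis) for the 11 Slc25 genes that passed the test (x axis). Filled points are the probes used, with 95% intervals, and open diamonds are the other detected probes of the same genes. The diamonds of Slc25a37, Slc25a20 and Slc25a11 lie below 0, where the probes used lie above it.

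Snail-line control contralateral kidneys against the same healthy kidneys called 0 members (0.443% of all genes), and 3 at an unadjusted p under 0.05 (7.03%). Twist-line against Snail-line control contralateral kidneys called 3 members, all higher in the Twist line (13.3% of all genes). They were Slc25a44 (0.84, adjusted p = 0.000292), Slc25a35 (0.84, adjusted p = 0.00922) and Slc25a30 (0.82, adjusted p = 0.0280). Slc25a30 had 8.78, 8.93 and 8.36 in Twist-line against 7.86, 7.52 and 8.22 in Snail-line kidneys, which did not overlap. In the authors' series matrix values, with the median of all genes at -0.25, all 3 were positive, and Slc25a44 passed (0.52) while Slc25a30 (0.50) and Slc25a35 (0.57) did not. In those values 8 other members were called, all lower in the Twist line, beside 23.0% of all genes lower and 2.79% higher. In the neqc values the comparison called 5 without the contralateral kidney of mouse 3, and 2 without that of mouse 1, 2, 9 or 10. The call of Slc25a30 was lost without mouse 1, 2, 8 or 9 (adjusted p = 0.0794 to 0.117). Fitted on these 2 groups alone, Slc25a30 did not pass either (adjusted p = 0.0788). The call of Slc25a35 was lost without mouse 10 (adjusted p = 0.0502). Line and strain background cannot be told apart here.

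Obstructed kidneys of the control lines were also set against healthy wild-type kidneys without cre, a comparison added after the values were seen. In Twist-line controls 25 members were lower and 1 higher (25.1% and 31.5% of all genes), and in Snail-line controls 21 were lower and 1 higher (18.4% and 22.8%). Slc25a24 was higher by 1.62 (SE 0.22) in Twist-line and by 1.42 (SE 0.22) in Snail-line obstructed kidneys. Slc25a10 was lower by 2.01 and 1.98, and Slc25a42 by 2.09 and 1.44. Slc25a44 had -0.23 (adjusted p = 0.143) in the Twist line and was lower by 0.80 (adjusted p = 1.95e-05) in the Snail line. These comparisons share their healthy kidneys. The Snail line differs from the healthy mice in strain background, so obstruction and background cannot be told apart in its values.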

How the data were processed

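Kidney RNA was taken up in Trizol and labelled with biotin for Illumina arrays, per the labels' protocols. The software named in the submitters' processing notes is GenomeStudio 5.0. Raw signal intensities came from the authors' deposited non-normalized table, whose columns are mean signals for a probe on an array, linear and not background-subtracted per the file headers. The paired columns of that deposited table hold detection p-values, which compare a probe with negative controls. Intensities in the authors' series matrix equalled the raw signals after a linear change on each array (r = 1, slopes 0.725 to 1.2, medians 6.4 to 16.1). The reason for that scaling is not given in the sources used here. Slides and scan dates were not in the tables used.

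The function neqc of limma (version 3.58.1, in R 4.3.3) corrected background and normalised quantiles with an offset of 16, and values are log2. Gene symbols were unique for 34885 of 45281 probes, while 18 probes had several and 10378 had none. Probes with a detection p under 0.05 on 3 or more arrays were kept (24544), and the brightest stood for its gene. Means of 12 groups were fitted over 37 arrays and compared by limma's moderated two-sided test, adjusted by Benjamini-Hochberg over 12866 genes, at a threshold of 0.05. The fit was tested on simulated data. All adjusted p-values and intervals come from limma. For a gene detected on no array of a group, the fold is a lower bound, taken against the lowest detected signal on each array.

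The 2 kidneys of a mouse carry its number in the labels, so they come from the same animal. Their residuals correlated at 0.171 to 0.63 in 12 pairs (consensus 0.233). The number of arrays limits the precision. The p-values rest on the spread between arrays within groups, pooled over all groups. Unless a mouse block is named, the 2 kidneys of a mouse were taken as separate arrays. The members, substrate groups and gene lists were chosen with earlier results of these data known. Named were the 10 members with the largest falls and all that rose in the averaged comparison, up to 5 in each other comparison, a set of carriers of known substrate whatever their values, and members that did not pass. Alternatives covered the background correction, the authors' values, filters, offset, probe choice, groups fitted, the mouse as a block and each array left out.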

Additional observations from a re-analysis of the deposited data

Results flagged for a closer look

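Values that stood apart from their group by Dixon's test were found in 4 of 37 members in the only group of 4 arrays, the Twist1-deleted obstructed kidneys. The test marks about 1 in 20 groups by chance. In mouse 7, Slc25a17 had a log2 signal of 11.05, where the other mice had 9.79, 9.82 and 9.83. Slc25a34 had 8.14 in mouse 7, where the others had 6.63, 6.67 and 6.71. Mouse 7 also had the smallest fall of the proximal tubule markers between its kidneys, with a median of -0.35. In mouse 6, Slc25a44 had 8.12, where the others had 8.40, 8.40 and 8.43. Slc25a53 had 5.32 in mouse 6, where the others had 5.65, 5.69 and 5.70.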

How the results depend on the processing

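In the averaged obstruction comparison the 30 members called kept their direction under each alternative run, except Slc25a27 (0.00 with the authors' series matrix values), and 29 to 30 members passed with 1 array left out at a time. With mouse as a random replicate block, 17 members were called in Snai1-deleted mice (7 without the block) and 1 in the difference between the control lines (0 without). The pairing moved no other count by over 1.5 times. Left-out arrays gave 4 to 9 in Snai1-deleted mice, 0 to 1 for Twist1 deletion in obstructed and in healthy kidneys, 7 to 8 for Twist-line contralateral against healthy kidneys (11 with all arrays) and 2 to 5 between the lines' contralateral kidneys (3 with all). Fitted on the groups compared alone, 15 members were called in Twist1-deleted obstruction (24 in the joint model) and 2 in healthy Twist1 deletion (0). Such fits lost 5 of the 11 calls for Twist-line contralateral against healthy kidneys and 1 of the 3 between the lines' contralateral kidneys. With the authors' series matrix values 9 were called between the lines' contralateral kidneys (1 of them shared with the 3), and Slc25a1 in Twist-line contralateral against healthy kidneys turned to -0.01. With the mean of all detected probes that comparison called 7, and Slc25a20 turned to -0.13. The cause of these shifts was not tested. Requiring detection on each array of a group left 34 members in the averaged comparison. A fixed mouse block could not be fitted between mice. Probes near background limit Slc25a2, Slc25a4, Slc25a13, Slc25a27 and Slc25a51.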
